A study of Homo sapiens with 16 samples.

Results

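The histone genes of the short arm of chromosome 6 were taken as the RefSeq protein-coding genes in a span of 2.1 Mb ending at 28 Mb whose symbols begin with H1-, H2AC, H2BC, H3C or H4C. The rule named 53 of the 19974 protein-coding genes placed on chromosomes 1 to 22 and X. They comprised 6 genes for the linker histone H1, 11 for H2A, 14 for H2B, 10 for H3 and 12 for H4. Chromatin immunoprecipitation followed by sequencing had been carried out in Toledo cells, an established human diffuse large B-cell lymphoma line, for H3K27ac, H3K4me1 and H3K4me3. The cells had received either TP-064 at 5 uM, which blocks the methyltransferase activity of CARM1, or the solvent DMSO, and were collected after 6 days. For each mark there were 2 CARM1 inhibitor and 2 DMSO libraries, 12 peak lists in all, beside 4 input libraries. All CARM1 inhibitor libraries carried a lane number of 4 and all DMSO libraries a lane number of 3, so an effect of lane cannot be told apart from that of treatment. Whether both libraries of a group are separate cultures is not labelled, and differences between them may be technical.

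Replication-dependent histone genes are short, mostly intronless genes that are switched on together in S phase, when new DNA has to be packaged. Their transcription is gathered in the histone locus body around the coactivator NPAT, and their mRNAs end in a stem-loop bound by SLBP in place of a poly(A) tail. H3K4me3 marks the start regions of active or poised genes, H3K27ac marks active promoters and enhancers, and H3K4me1 is most abundant at enhancers. CARM1 methylates arginines of histone H3 and of coactivators such as the acetyltransferases p300 and CBP, which place H3K27ac.

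The 53 genes formed 3 subclusters on hg38 (GRCh38.p14 annotation). The first held 32 genes from H1-1 to H4C8 and spanned 269 kb (chr6:26017032-26285534). The second held 5 genes from H2BC11 to H2AC12 in 15.2 kb (chr6:27132316-27147562). The third held 16 genes from H2BC13 to H2BC17 in 86.4 kb (chr6:27807479-27893891). The files hold peak positions without heights or read counts, so the measurement for a gene was its covered length, the base pairs of peak within 2 kb of either gene end. Read depth is unknown. Neighbouring histone genes often lay under the same peak, so the genes are not independent of each other. A mark is called lost at a gene when both DMSO lists and neither CARM1 inhibitor list had a peak in that window, and gained in the opposite case.

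**Figure D1:**
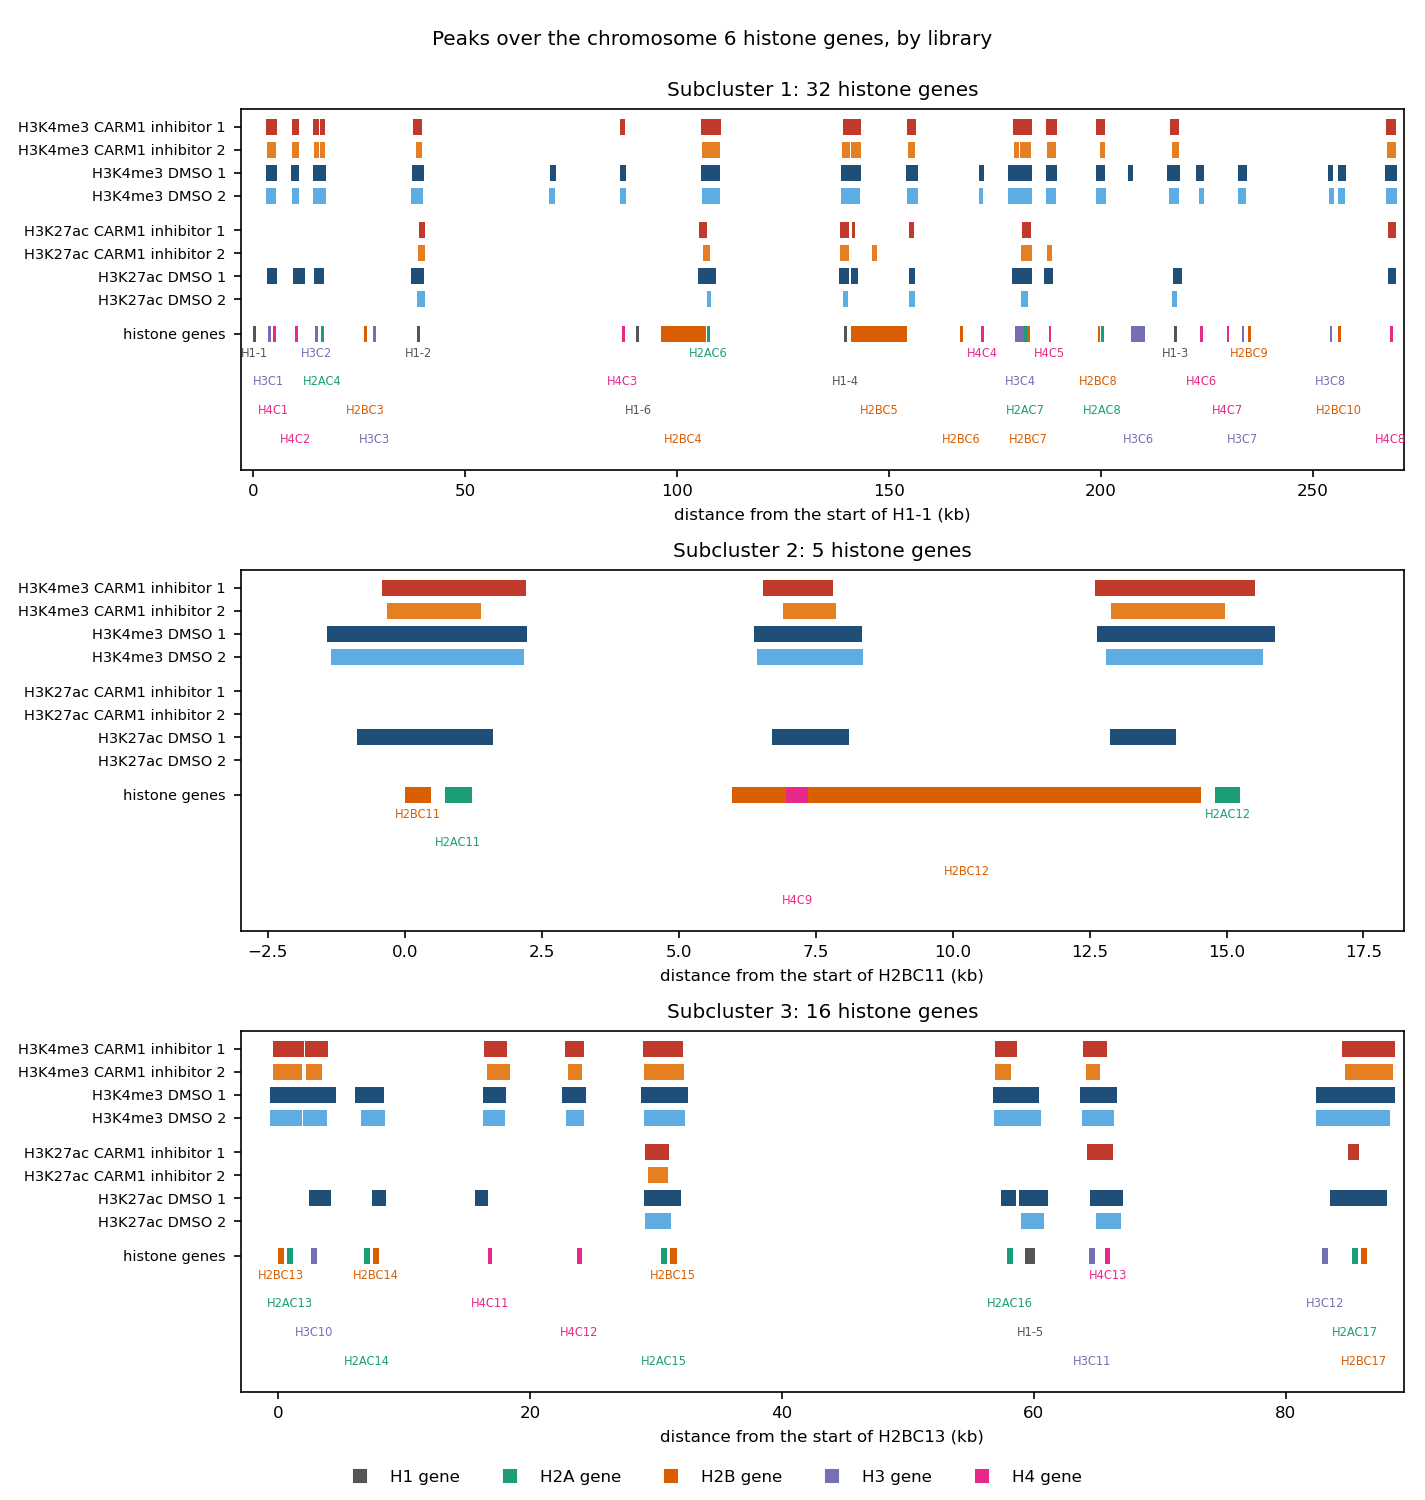
Peaks over the 3 subclusters, drawn as bars by library (rows) along the distance in kb from the first gene of each subcluster, with the histone genes coloured by class in the lowest row. No H3K4me3 bar lies wholly in the stretch of both CARM1 inhibitor rows between H1-3 and H4C8, where the DMSO rows have 4 peaks each, and H3K27ac bars are most numerous in DMSO library 1.

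The genes shared promoter sequence elements by class. RefSeq promoter windows of 250 bases before to 50 after the start (GRCh38.p14) were present in the table used for 48 of the 53 genes, and those of H3C11, H4C3, H3C12, H2AC12 and H4C1 were not. Both strands were searched. The TATA box was taken as TATAAA, the CCAAT box as the letters of its name, and the H1 box as AAACACA. The octamer, bound by POU2F1 and POU2F2, was taken as ATTTGCAT. An E2F site was any of TTTCCCGC, TTTGGCGC and TTTCGCGC. The H1 box was present at 6 of 6 H1 genes and at no gene of the other classes, against 5.64% of all 35116 promoters in the table. The octamer was present at 8 of 10 H2A and 11 of 14 H2B genes, against 1.77% of all promoters. No counted window of an H1, H3 or H4 gene held it, but a further H3C4 window, shared with H2AC7 and not counted for H3C4, did. A CCAAT box was present at every H1, H2A, H2B and H3 gene with a window but at only 3 of 10 H4 genes, against 34.6% of all promoters. TATA boxes were present at 66.7% of the histone genes and 11.5% of all promoters, and E2F sites at 12 of the 48 histone genes and 2.74% of all promoters. Matches were counted wherever they occurred, overlaps between elements included. Divergent H2A and H2B genes share a window in part, so some of these matches are the same bases counted at both genes. A match describes these letters only and is neither a binding site nor a cause.

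**Figure D2:**
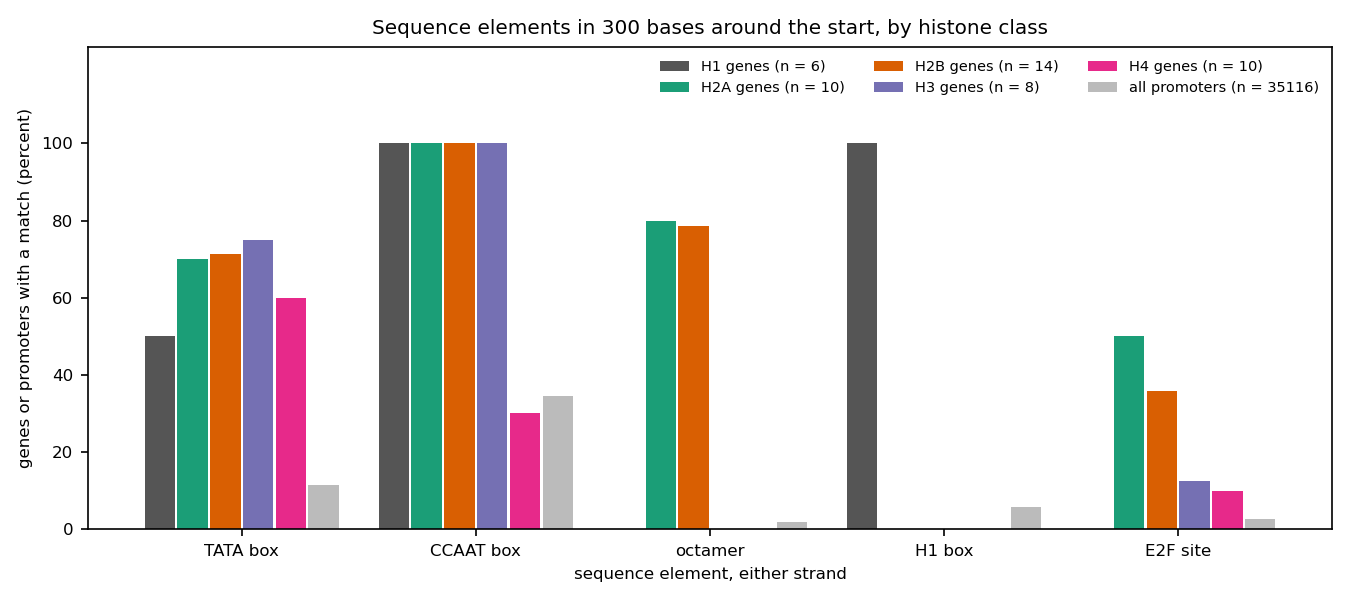
Percentage of genes with at least 1 match to each sequence element (groups on the x axis) in the counted window, by histone class, with all promoters of the table in grey. The H1 box bar stands at 100% for H1 genes only, octamer bars stand for H2A and H2B genes only, and the CCAAT bar of H4 genes, for 3 of 10, is the lowest of the 5 classes.

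The promoter of 1 member of each class, that with the largest mean H3K27ac covered length, is shown to let the class elements be read in sequence, each 5′ to 3′ on the strand of its gene with element matches in capitals. That length is counted within 2 kb of either gene end, so a printed promoter need not lie under a peak. The printed starts of H3C4 and H2BC5 were under an H3K27ac peak in DMSO library 1 only. H4C13 also had no H3K4me3 peak over its start in either CARM1 inhibitor list.
H1-4 (chr6:26156079-26156378, plus strand): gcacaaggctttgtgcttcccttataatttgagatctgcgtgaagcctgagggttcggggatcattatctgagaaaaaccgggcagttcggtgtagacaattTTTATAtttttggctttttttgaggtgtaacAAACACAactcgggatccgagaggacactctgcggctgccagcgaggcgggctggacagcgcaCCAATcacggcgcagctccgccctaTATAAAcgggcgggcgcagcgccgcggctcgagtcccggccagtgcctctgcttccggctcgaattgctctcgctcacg
H2AC7 (chr6:26199244-26199543, minus strand): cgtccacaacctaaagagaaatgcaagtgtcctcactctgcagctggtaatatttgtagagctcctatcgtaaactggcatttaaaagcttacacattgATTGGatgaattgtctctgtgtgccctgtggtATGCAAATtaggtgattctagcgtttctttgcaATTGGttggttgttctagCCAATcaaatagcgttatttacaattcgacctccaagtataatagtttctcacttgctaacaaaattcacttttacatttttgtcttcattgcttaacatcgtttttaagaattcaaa
H2BC5 (chr6:26157871-26158170, plus strand): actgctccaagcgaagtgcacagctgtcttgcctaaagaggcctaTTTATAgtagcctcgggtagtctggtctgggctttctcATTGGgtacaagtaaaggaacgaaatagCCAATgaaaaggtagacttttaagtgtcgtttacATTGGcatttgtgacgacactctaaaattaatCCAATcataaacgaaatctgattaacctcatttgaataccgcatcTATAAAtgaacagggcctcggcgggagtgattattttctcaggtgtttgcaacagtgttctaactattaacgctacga
H3C4 (chr6:26197237-26197536, minus strand): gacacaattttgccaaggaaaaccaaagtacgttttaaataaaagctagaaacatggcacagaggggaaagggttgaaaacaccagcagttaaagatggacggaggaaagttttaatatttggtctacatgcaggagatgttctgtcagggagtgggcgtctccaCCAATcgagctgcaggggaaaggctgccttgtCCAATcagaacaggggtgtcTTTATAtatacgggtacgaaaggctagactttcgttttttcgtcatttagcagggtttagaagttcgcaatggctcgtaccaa
H4C13 (chr6:27873485-27873784, minus strand): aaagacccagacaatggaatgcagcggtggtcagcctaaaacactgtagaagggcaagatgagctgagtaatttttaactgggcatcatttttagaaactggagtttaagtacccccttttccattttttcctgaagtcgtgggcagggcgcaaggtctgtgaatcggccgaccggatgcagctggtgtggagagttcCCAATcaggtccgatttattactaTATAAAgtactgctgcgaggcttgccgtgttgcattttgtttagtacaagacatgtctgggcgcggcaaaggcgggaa

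The H1-4 window holds an H1 box, a CCAAT box and a TATA box in that order toward its start, and a TATA match on the opposite strand upstream of them. The H2AC7 window holds the octamer and 3 CCAAT boxes and no TATA box, and it is also the window of another H3C4 start in the table. The H4C13 window holds 1 CCAAT box and 1 TATA box.

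The next 3 promoters are from genes that lost a mark in the CARM1 inhibitor libraries. H1-5 lost H3K27ac and, over the gene, H3K4me3, while H3C8 and H2BC14 lost H3K4me3.
H1-5 (chr6:27867539-27867838, minus strand): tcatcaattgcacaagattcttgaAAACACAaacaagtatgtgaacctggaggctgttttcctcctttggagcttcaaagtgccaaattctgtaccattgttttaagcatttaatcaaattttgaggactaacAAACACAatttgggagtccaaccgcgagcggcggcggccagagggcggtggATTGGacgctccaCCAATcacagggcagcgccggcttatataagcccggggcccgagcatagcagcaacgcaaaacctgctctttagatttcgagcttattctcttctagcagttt
H3C8 (chr6:26271364-26271663, minus strand): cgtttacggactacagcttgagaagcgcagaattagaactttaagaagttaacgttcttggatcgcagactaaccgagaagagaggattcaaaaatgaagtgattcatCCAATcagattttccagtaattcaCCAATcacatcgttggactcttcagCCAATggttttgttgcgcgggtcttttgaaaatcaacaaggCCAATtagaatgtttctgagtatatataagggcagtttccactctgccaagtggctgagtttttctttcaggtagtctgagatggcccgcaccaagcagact
H2BC14 (chr6:27814772-27815071, plus strand): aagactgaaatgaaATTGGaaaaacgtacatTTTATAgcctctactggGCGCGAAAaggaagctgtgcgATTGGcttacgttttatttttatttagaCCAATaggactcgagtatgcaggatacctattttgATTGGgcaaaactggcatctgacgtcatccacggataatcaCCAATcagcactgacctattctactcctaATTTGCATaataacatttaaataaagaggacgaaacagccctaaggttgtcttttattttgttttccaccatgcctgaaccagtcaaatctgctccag

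The H1-5 window has 2 H1 boxes, that of H3C8 has 4 CCAAT boxes, and that of H2BC14 has 5 CCAAT boxes, an octamer, an E2F site and a TATA box on the opposite strand. Among the 8 genes that lost H3K4me3, 7 held a CCAAT box, 4 a TATA box, 4 an octamer and 3 an E2F site. Among the 33 genes with a window that kept the mark, 28 held a CCAAT box, 23 a TATA box, 13 an octamer and 8 an E2F site.

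H3K4me3 was the mark that covered most of the cluster, and fewer histone genes carried it after CARM1 inhibition. Peaks lay at 38 and 37 of the 53 genes in the CARM1 inhibitor lists, against 47 and 46 in the DMSO lists. As shares these were 71.7 and 69.8% with the inhibitor and 88.7 and 86.8% with DMSO, where all protein-coding genes stood at 51.0 and 49.2% with the inhibitor and 55.8 and 54.1% with DMSO. Both inhibitor lists were below both DMSO lists.

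The span of 2.1 Mb held 55 and 53 H3K4me3 peaks in the CARM1 inhibitor lists, against 69 and 65 in the DMSO lists, a log2 ratio of -0.31 that was 0.08 when all lists were cut to the same number of widest peaks. They covered 111 and 89.7 kb with the inhibitor, against 159 and 141 kb with DMSO, and the groups did not overlap (100194 ± 14854 bp and 149726 ± 12656 bp, SD, n = 2 each, log2 ratio -0.58). The exact two-sided permutation test over the 4 libraries gave p = 0.333, the smallest value this design can give. As a share of all base pairs in each list the span held 0.531 and 0.474% with the inhibitor, against 0.556 and 0.560% with DMSO. That share, which sets the span against the rest of the genome, had a log2 ratio of -0.15 with the same exact permutation p of 0.333. The whole H3K4me3 lists were themselves shorter with the inhibitor, at 10317 and 10048 peaks, against 12476 and 11481 with DMSO.

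At the level of single genes, 8 of the 46 histone genes with H3K4me3 in both DMSO lists lost it (17.4%), where 5.67% of all such genes did. No histone gene gained it, where 0.0114% of the genes without the mark in DMSO did. The mark was kept in all 4 lists at 37 genes. It was mixed at H4C3, which had 983 and 0 bp with the inhibitor against 1505 and 1445 bp with DMSO, and at H3C6, where DMSO library 1 alone had a peak of 1155 bp. Loss by class was 0 of 4 for H1, 1 of 11 for H2A, 3 of 12 for H2B, 2 of 8 for H3 and 2 of 11 for H4. Where peaks near more than 1 histone gene were left out, 2 genes counted as lost. In a bulk sample, fewer cells with a mark and less of the mark in each cell cannot be told apart.

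**Figure D3:**
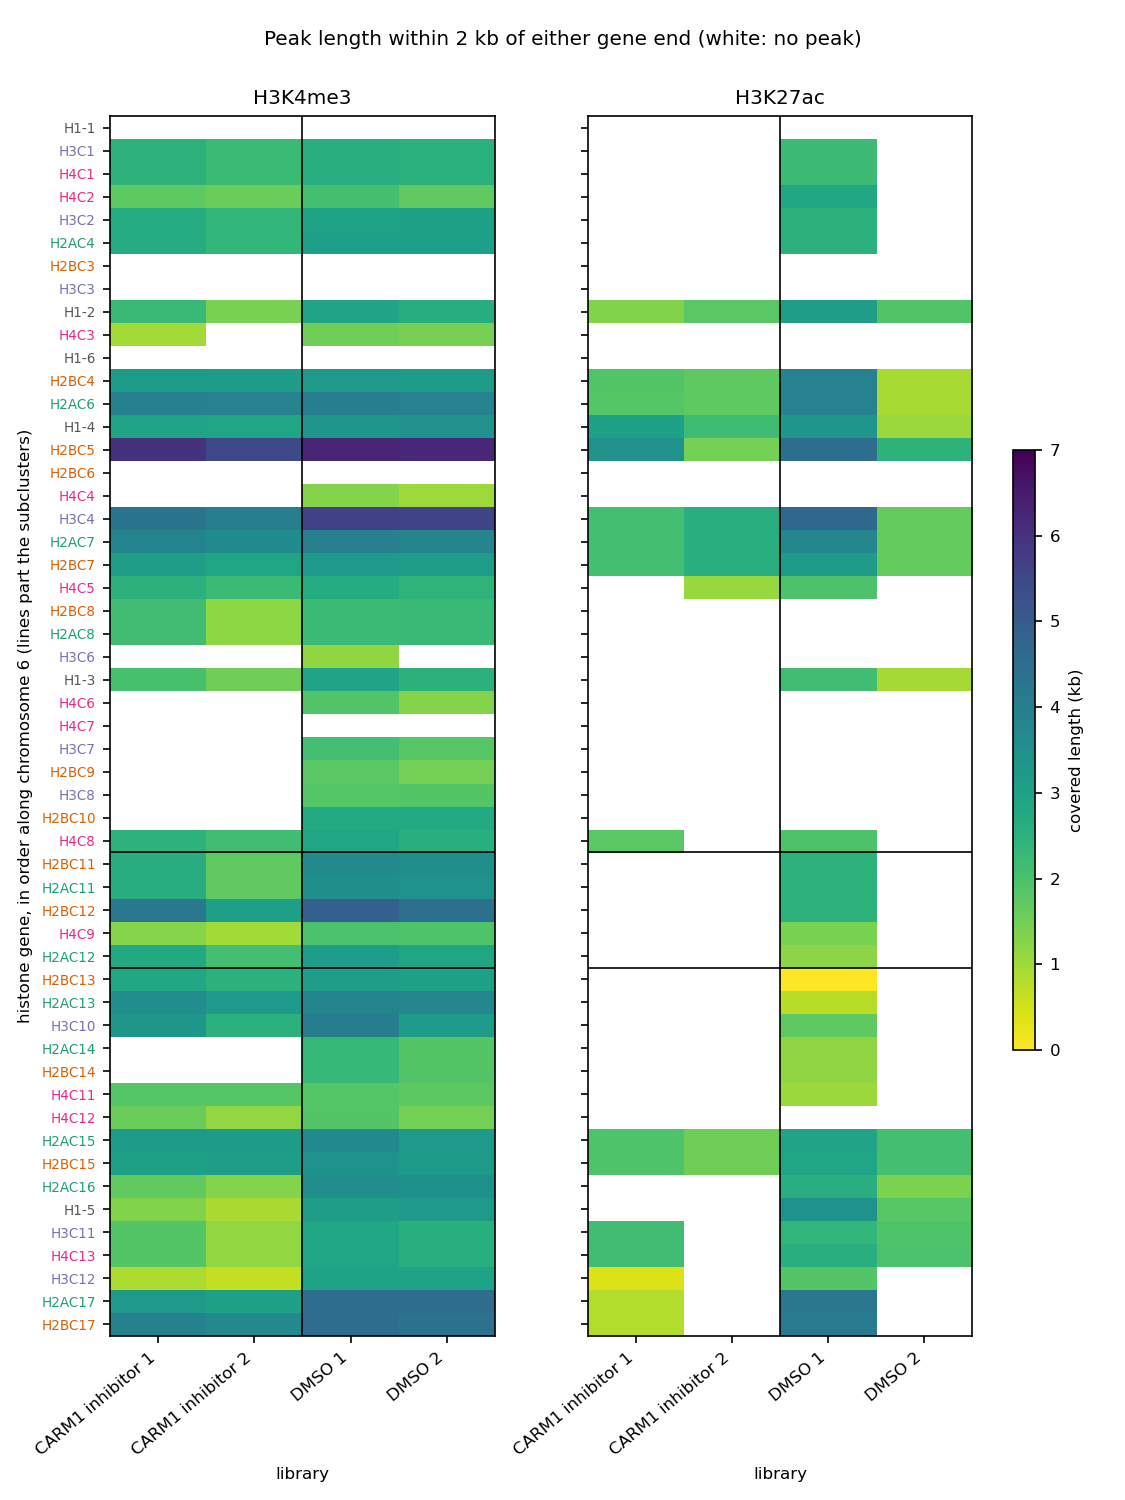
Covered length in kb at each of the 53 histone genes (rows, in genome order, names coloured by class as in the map of peaks) in each library (columns, CARM1 inhibitor left of DMSO), for H3K4me3 and H3K27ac. White cells have no peak. The 8 genes that lost H3K4me3 are white in both CARM1 inhibitor columns only, and H3K27ac fills 36 rows in DMSO library 1 against 15 in DMSO library 2.

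The H1 genes encode the linker histone that binds DNA between nucleosomes. H1-2, H1-3, H1-4 and H1-5 carried H3K4me3 in all 4 lists, and H1-1 and the testis gene H1-6 had no peak of any mark in any list. All 4 H1 genes with the mark were narrower in both inhibitor lists than in either DMSO list, where 82.5% of all genes with the mark in 4 lists were. H1-5 (chr6:27866792-27867588) changed most, with 1322 and 886 bp in the CARM1 inhibitor lists against 3091 and 3221 bp in the DMSO lists. The groups did not overlap, and the means were 1104 ± 308 bp with the inhibitor and 3156 ± 91.9 bp with DMSO (SD, n = 2 each, log2 ratio -1.52). The base pairs that remained lay toward the neighbouring gene H2AC16: the body of H1-5, fully covered at 797 bp in both DMSO lists, had 0 bp in both inhibitor lists. H1-4 moved far less, with 2925 and 2889 bp with the inhibitor against 3341 and 3469 bp with DMSO.

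The H2A and H2B genes encode the dimer that flanks the central tetramer of the nucleosome. Pairs were counted where neighbouring genes were transcribed away from each other from starts at most 1000 bp apart. By that limit an H2A and an H2B gene formed a pair in 8 places and H3C7 and H2BC9 formed 1 more, while divergent neighbours farther apart, such as H3C8 and H2BC10, were left out. Starts within these pairs were 194 to 979 bp apart, with a median of 244 bp. A single H3K4me3 peak lay over both starts of 7 pairs in each CARM1 inhibitor list, against 8 pairs in each DMSO list. The pair that differed was H2AC14 and H2BC14, whose shared peak had 0 bp in both inhibitor lists against 2298 and 1862 bp in the DMSO lists (chr6:27813551-27815939). These were the H2A loss and 1 of the 3 H2B losses.

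The other H2B losses were H2BC9 and H2BC10. H2BC10 had 0 bp in both inhibitor lists against 2718 and 2711 bp in the DMSO lists, the longest coverage among the genes that lost the mark. H2BC9 had 0 bp with the inhibitor against 1788 and 1471 bp with DMSO, but the DMSO peaks lay at its neighbour H3C7 and did not reach H2BC9 itself. H2BC3 and H2BC6 had no peak of any mark in any list.

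The longest H3K4me3 coverage of the cluster also belonged to these classes. H2BC5, whose 2 ends are far enough apart for separate windows, had 6011 and 5461 bp with the inhibitor against 6274 and 6218 bp with DMSO, and H2BC12 had 4205 and 3041 bp against 4854 and 4427 bp. Both genes were narrower in both inhibitor lists. H2AC16 had 1711 and 1303 bp with the inhibitor against 3563 and 3484 bp with DMSO (log2 ratio -1.23), without overlap of the groups. Its neighbour to the right is H1-5, and the 2 genes share the region described above.

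Among the H3 genes, which encode the histone that carries all 3 marks, H3C7 and H3C8 lost H3K4me3. H3C7 had 0 bp in both inhibitor lists against 2079 and 1812 bp in the DMSO lists, in 1 region (chr6:26249273-26251401). H3C8 had 0 bp with the inhibitor against 1839 and 1875 bp with DMSO. Its window and that of H2BC10 hold the same 2 regions (chr6:26270506-26271911 and chr6:26272778-26274717). H3C3 had no peak of any mark in any list, and H3C4 had the second-longest coverage of the cluster, at 4312 and 4012 bp with the inhibitor against 5639 and 5531 bp with DMSO. H3C12 had the largest change among genes that kept the mark, with 859 and 648 bp with the inhibitor against 2944 and 2934 bp with DMSO. The means were 754 ± 149 bp and 2939 ± 7.07 bp (SD, n = 2 each, log2 ratio -1.96). As at H1-5, the remaining base pairs lay beside the gene: its 512 bp were fully covered in both DMSO lists and had 0 bp in both inhibitor lists.

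Among the H4 genes, H4C4 and H4C6 lost H3K4me3. H4C4 had 0 bp in both inhibitor lists against 1299 and 1029 bp in the DMSO lists, and H4C6 had 0 bp against 1900 and 1287 bp. The regions were chr6:26188140-26189493 at H4C4 and chr6:26239440-26241339 at H4C6. Both are among the shorter coverages in DMSO. H4C7 had no peak of any mark in any list. The 3 genes with the shortest coverage among those that kept the mark were all H4 genes. H4C12 had 1577 and 1134 bp with the inhibitor against 1868 and 1470 bp with DMSO, and its groups overlapped. H4C9 had 1278 and 961 bp with the inhibitor against 1979 and 1927 bp with DMSO, with no overlap. H4C2 had 1727 and 1565 bp with the inhibitor against 2071 and 1700 bp with DMSO, again with overlap. H4C11 was the only kept gene with a log2 ratio above 0, at 0.03, and its groups overlapped too.

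**Figure D4:**
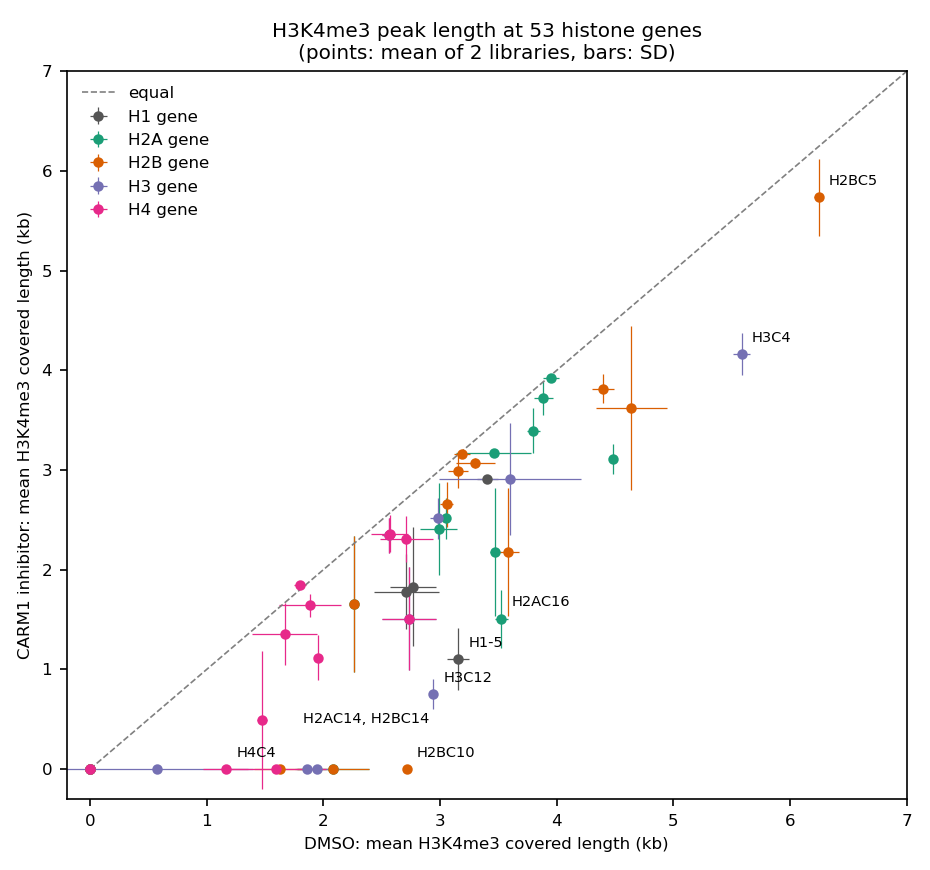
Mean H3K4me3 covered length of each histone gene in kb with the CARM1 inhibitor (y axis) against DMSO (x axis), coloured by class, with bars for the SD of 2 libraries. The 8 genes that lost the mark lie on the x axis at 2714 bp or less, H3C12 and H1-5 lie farthest below the dashed line of equality among the other genes, and long coverages such as that of H2BC5 lie near it.

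Most kept peaks were narrower with the inhibitor, in the cluster and across the genome. Of the 37 histone genes that kept H3K4me3, 28 were narrower in both inhibitor lists than in both DMSO lists (75.7%), where 82.5% of all genes with the mark in 4 lists were, and none was wider, where 0.348% of all genes were. The median log2 ratio was -0.28 for these 37 genes and -0.25 for all genes, and the range in the cluster was -1.96 to 0.03. The 37 genes were covered for a median of 2360 bp with the inhibitor and 3060 bp with DMSO.

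The 8 histone genes that lost the mark had shorter coverage in DMSO, at a median of 1901 bp, than the 37 that kept it, at 3060 bp. The mean DMSO coverage of the 8 genes ranged from 1164 to 2714 bp, and none of the 26 histone genes above that range lost the mark. Inside it, 8 of 20 histone genes did, where 6.15% of the 7411 genes of that range across the genome did. The range was set by the lost genes themselves, so the lack of losses above it follows from that choice and the shares are a description. Across the genome the range is not a narrow one, as it held 7411 of the 10802 genes with the mark in both DMSO lists. The 6 lost peak regions at histone genes stood at percentiles 2.30 to 36.6 of peak width within the list of DMSO library 2 (median 18.3), and the 22 kept regions at 15 to 99.7 (median 77.1). Within the list of DMSO library 1 the lost regions stood higher, at percentiles 9.26 to 57.3 (median 32.8), and the kept regions at 31.2 to 99.6 (median 82.6). The ranges overlapped in both lists. Counted as regions, 11 of the 64 in both DMSO lists across the span were lost (17.2%), where 10.9% of such regions were lost over all chromosomes.

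By subcluster, 6 of 25 genes with the mark in both DMSO lists lost it in the first, 0 of 5 in the second and 2 of 16 in the third. The 5 genes of the second subcluster were all narrower in both inhibitor lists, where 82.5% of all genes with the mark in 4 lists were. Their median log2 ratio of -0.67 stood below the -0.21 and -0.30 of the kept genes in the first and the third. The median over all genes was -0.25. Genes of the second subcluster share regions, H2BC11 with H2AC11 and H2BC12 with H4C9 and with H2AC12, so the 5 values are not independent. H2BC11 there had 2633 and 1722 bp with the inhibitor against 3650 and 3512 bp with DMSO.

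Of the 8 genes that lost H3K4me3, 5 lay in 1 stretch of the first subcluster, which was chosen after the losses were seen. H4C4 lay outside it in the same subcluster, and H2AC14 and H2BC14 lay in the third subcluster. Between H1-3 and H4C8 lie 50.1 kb with 6 histone genes (chr6:26234988-26285125), and 5 of them (H4C6, H3C7, H2BC9, H3C8 and H2BC10) lost H3K4me3, the sixth being H4C7, which had none. These 5 are not independent, since H3C7 and H2BC9 share 1 lost region and H3C8 and H2BC10 share 2. No H3K4me3 peak lay wholly inside this stretch in either CARM1 inhibitor list, against 4 in each DMSO list. No H3K27ac peak lay at any of these 6 genes in any list. The genes at its borders behaved otherwise: H1-3 had 2045 and 1518 bp with the inhibitor against 2909 and 2514 bp with DMSO, and H4C8 had 2470 and 2144 bp against 2871 and 2550 bp.

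Where peaks were read over the genes or their starts in place of the 2 kb windows, the same stretch stood out together with 3 more genes. Over the gene itself, 9 of 45 histone genes lost H3K4me3, where 6.03% of all genes did. H1-5 and H3C12 were added by this reading and H2BC9 was not counted. Over the annotated start, 9 of 40 lost it (22.5%), where 5.26% of all genes did. These were H4C4, H4C6, H3C7, H3C8, H2BC10, H2AC14, H2BC14, H1-5 and H4C13.

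In the third subcluster, 3 peaks narrowed mainly from 1 side. The peak over H2AC16 and H1-5 had its right edge at positions 27866113 and 27865677 in the CARM1 inhibitor lists, against 27867882 and 27868012 in the DMSO lists, a mean difference of -2052 bp that left H1-5 uncovered. Its left edge lay 114 bp farther right with the inhibitor. The peak over H3C12, H2AC17 and H2BC17 had its left edge at 27891968 and 27892179 with the inhibitor, against 27889883 and 27889893 with DMSO, a mean difference of 2186 bp that left H3C12 uncovered. Its right edge differed by 135 bp on average and the groups overlapped there. The right edge of the peak over H3C11 and H4C13 differed by -968 bp on average (CARM1 inhibitor minus DMSO), short of the H4C13 start, and its left edge by 252 bp. The 3 peaks were chosen after their values were seen.

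The start of the gene was under an H3K4me3 peak at 64.6 and 64.6% of the 48 histone genes with an annotated start in the CARM1 inhibitor lists, against 85.4 and 83.3% in the DMSO lists. All genes with a start stood at 49.3 and 47.6% with the inhibitor and 53.8 and 52.4% with DMSO. At the 31 genes with the start covered in all 4 lists, the peak ran a median of 1351 and 1079 bp downstream with the inhibitor, against 1992 and 1741 bp with DMSO. Upstream it ran 1136 and 547 bp with the inhibitor, against 1347 and 1318 bp with DMSO. Both sides were thus shorter in both inhibitor lists by these medians, but not at every gene. Upstream, 20 of the 31 genes were shorter in both inhibitor lists than in both DMSO lists and 1 was longer. Downstream, 15 were shorter and 3 were longer. These counts were not made for all genes.

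**Figure D5:**
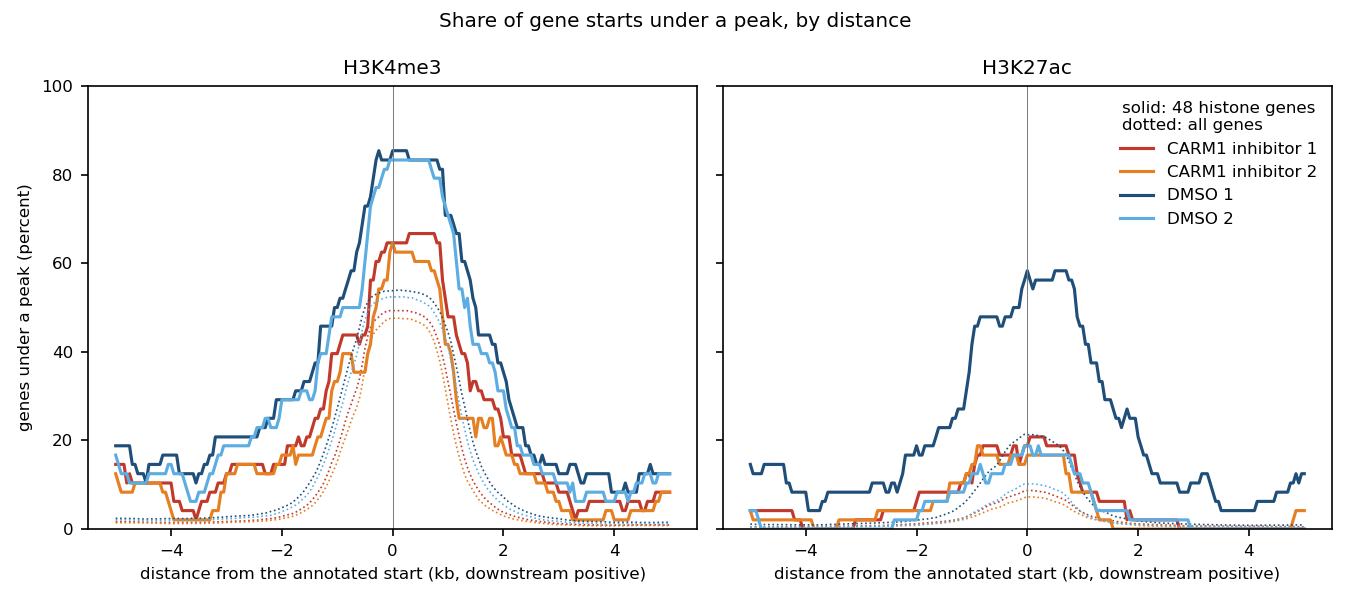
Percentage of genes under a peak (y axis) by distance from the annotated start in kb (x axis, downstream positive), for H3K4me3 and H3K27ac, by library. Solid lines are the 48 histone genes and dotted lines all genes with a start. For H3K4me3 both CARM1 inhibitor lines lie below both DMSO lines at the start, and for H3K27ac DMSO library 1 reaches 58.3% there while the other 3 libraries lie between 16.7 and 18.8%.

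H3K27ac was carried by fewer of the genes than H3K4me3, and its picture depended on the DMSO library. Peaks lay at 16 and 11 of the 53 genes in the CARM1 inhibitor lists, against 36 and 15 in the DMSO lists. As shares these were 30.2 and 20.8% with the inhibitor and 67.9 and 28.3% with DMSO. All protein-coding genes stood lower, at 10.9 and 9.43% with the inhibitor and 24.2 and 12.3% with DMSO. DMSO library 1 stood apart throughout: 16 genes had a peak in that list alone, and its whole list held 7885 peaks, against 4016 in DMSO library 2 and 4771 and 4595 in the inhibitor lists. The span was covered for 18.8 and 13.1 kb with the inhibitor, against 57.1 and 13.8 kb with DMSO (log2 ratio -1.15, exact permutation p = 0.667). Without DMSO library 1 the log2 ratio was 0.21, and without DMSO library 2 it was -1.84. All 36 genes with H3K27ac in any list also had H3K4me3 in at least 1 list. This was common over all genes too. With the inhibitor 2043 and 1736 genes had both marks, and 134 and 147 had H3K27ac without H3K4me3. With DMSO 4719 and 2369 genes had both, and 123 and 80 had H3K27ac without H3K4me3.

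Of the 15 histone genes with H3K27ac in both DMSO lists, 3 lost it, where 28% of all such genes did, and none gained it, where 0.413% did. The 3 genes were the linker histone genes H1-3 and H1-5 and the H2A gene H2AC16. H1-3 had 0 bp in both inhibitor lists against 2145 and 953 bp in the DMSO lists. H1-5 had 0 bp with the inhibitor against 3440 and 1817 bp with DMSO, and H2AC16 had 0 bp against 2623 and 1368 bp. H2AC16 and H1-5 share 1 lost region (chr6:27866333-27868615), so the 3 genes stand for 2 regions. The H3K4me3 log2 ratio was -1.52 at H1-5, -1.23 at H2AC16 and -0.61 at H1-3. The count rested on the libraries used: without DMSO library 2 it was 19 genes, and without CARM1 inhibitor library 1 it was 5.

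The other H1 genes with the mark kept it. H1-4 had 2996 and 2183 bp with the inhibitor against 3316 and 1041 bp with DMSO, the only kept gene with a log2 ratio above 0 (0.25). H1-2 had 1317 and 1781 bp with the inhibitor against 3084 and 1907 bp with DMSO, below both DMSO values. It had the shortest mean coverage of the 10 kept genes, followed by the divergent neighbours H2AC6 and H2BC4. H2AC6 had 1845 and 1726 bp with the inhibitor against 3908 and 903 bp with DMSO, and H2BC4 had 1889 and 1726 bp against 3900 and 903 bp. In both, the inhibitor libraries lie between the DMSO libraries.

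The longest kept H3K27ac coverages were in the windows of H2BC5, H3C4 and H2AC7. H2BC5 had 3412 and 1471 bp with the inhibitor against 4481 and 2465 bp with DMSO. H3C4 had 2093 and 2615 bp with the inhibitor against 4645 and 1647 bp with DMSO, and H2AC7 had 2093 and 2615 bp against 3767 and 1647 bp. The groups overlapped at all 3. H2BC5 has separate windows at its ends, and the only region there found in all 4 lists lay at H1-4 and ended before the H2BC5 start. That start was under an H3K27ac peak in DMSO library 1 only. The annotation of H3C4 reaches the start of H2AC7, and these genes share the region found in all 4 lists. The remaining kept genes were H2BC7, with 2093 and 2615 bp with the inhibitor against 3144 and 1647 bp with DMSO, and the pair H2AC15 and H2BC15. H2AC15 had 1934 and 1529 bp with the inhibitor against 2920 and 2086 bp with DMSO. In all, 3 of the 10 kept genes (H1-2, H2AC15 and H2BC15) were lower in both inhibitor lists, where 36.5% of all genes with the mark in 4 lists were, and none was higher, where 5.04% were. No H4 gene had H3K27ac in all 4 lists.

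The other 23 genes with H3K27ac had it in some libraries of a group only. The neighbours H3C11 and H4C13 had a peak in 1 inhibitor library and both DMSO libraries. H4C13 had 2136 and 0 bp with the inhibitor against 2584 and 1987 bp with DMSO. At H4C8, H3C12, H2AC17 and H2BC17 the peak was in CARM1 inhibitor library 1 and DMSO library 1, and at H4C5 in CARM1 inhibitor library 2 and DMSO library 1. The 16 genes with a peak in DMSO library 1 alone included all 5 genes of the second subcluster and the first 5 genes after H1-1 (H3C1, H4C1, H4C2, H3C2 and H2AC4). H2BC11 in the second subcluster had 0 bp in both inhibitor lists against 2484 and 0 bp in the DMSO lists. The 17 genes without the mark in any list included the 6 genes with no peak of any kind.

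Over the gene itself, 3 of 11 histone genes lost H3K27ac (H1-3, H1-5 and H2BC15), where 25.8% of all genes did. Over the annotated start, 2 of 10 did (H1-5 and H2BC15), where 30.2% of all genes did. H2BC15 kept its peak in the 2 kb window, with 1934 and 1529 bp with the inhibitor against 2877 and 2086 bp with DMSO. The inhibitor peaks there ended between the starts of H2AC15 and H2BC15.

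No histone gene lost both marks by the 2 kb windows. None of the 8 genes that lost H3K4me3 had H3K27ac in both DMSO lists: 6 had it in no list, and H2AC14 and H2BC14 had it in DMSO library 1 alone, at 1150 bp. The same overlap was not counted over all protein-coding genes, so nothing particular to the cluster is read from it. By the same windows the 3 genes that lost H3K27ac and the 10 that kept it all kept H3K4me3. Read over the gene itself or over its start, H1-5 lost both marks. Median H3K4me3 coverage with DMSO was 3433 bp at the 10 genes that kept H3K27ac, 3156 bp at the 3 that lost it and 1475 bp at the 17 with none.

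H3K4me1 was nearly missing from the cluster. The span held 1 and 0 peaks in the CARM1 inhibitor lists, against 11 and 1 in the DMSO lists. No histone gene had a peak in either inhibitor list or in DMSO library 2, and 9.43% had one in DMSO library 1. Among all protein-coding genes, 5.44 and 5.46% had the mark with the inhibitor and 37.8 and 13.4% with DMSO. Few genes anywhere carried the mark with the inhibitor, so its absence from histone genes in those lists says little about the cluster. In DMSO library 1, H4C13 had 1056 bp, H2BC11 834 bp, H3C11 620 bp, H2AC11 476 bp and H2BC5 60 bp. That library held 25058 peaks, against 9673 in DMSO library 2, and without library 2 these 5 genes would count as lost. No histone gene had the mark in both DMSO lists, so none could be called lost, where 55.4% of all genes with the mark in both DMSO lists lost it.

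Genes that act on the cluster from elsewhere were read in the same way. Of 23 genes for histone gene transcription and mRNA processing, 8 had H3K27ac in both DMSO lists and 4 of them lost it. NPAT, the coactivator of the histone locus body, had 0 bp in both inhibitor lists against 1962 and 834 bp in the DMSO lists. SLBP, the stem-loop binding protein, had 0 bp with the inhibitor against 2640 and 1722 bp with DMSO, and it also lost H3K4me1. The cleavage factor gene CPSF2 had 0 bp against 1817 and 1492 bp, and MYBL2, which encodes B-Myb, had 0 bp against 1708 and 1477 bp. LSM10 of the U7 particle lost H3K4me1, with 0 bp in both inhibitor lists against 708 and 79 bp in the DMSO lists. SLBP and LSM10 were 2 of the 6 processing genes with H3K4me1 in both DMSO lists (33.3%), where 55.4% of all such genes lost it. Of 12 chaperone genes, NASP, SUPT16H and SSRP1 were 3 of the 6 that could lose H3K27ac. RBBP4 was the only chaperone gene with H3K4me1 in both DMSO lists, and it lost that mark. Read against the 28% of all genes, both H3K27ac shares, 4 of 8 and 3 of 6, rest on small numbers. H3K4me3 was lost at none of the 22 processing genes and none of the 11 chaperone genes that carried it in both DMSO lists. Among all genes 5.67% lost it, a share that gives few losses or none in lists of this size, so nothing is read from these counts.

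The 41 other histone genes, on chromosome 6 outside the span and on other chromosomes, gave 1 H3K4me3 loss among 19 genes (5.26%), at H2AJ, which had 0 bp with the inhibitor against 1786 and 1756 bp with DMSO. H3K27ac was lost at 4 of 12, namely H2AC19, H2AZ1, H2AZ2 and H2AX (33.3%). Both shares are near those of all genes, 5.67% for H3K4me3 and 28% for H3K27ac. Whether the cluster differs from these genes was not tested.

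As a check of the labelled line, the B-cell genes PAX5, CD79A, CD79B and MS4A1 each carried both H3K4me3 and H3K27ac in all 4 lists of the mark. Of 6 marker genes of other cell types, 5 had no H3K4me3 in any list, and COL1A1 had it in both DMSO lists only, at 1723 and 1546 bp. COL1A1 also had H3K4me1 in all 4 lists, at 3757 and 4708 bp with the inhibitor against 6113 and 5839 bp with DMSO, and H3K27ac in DMSO library 1 only, at 2394 bp. The T-cell gene CD3E had H3K4me1 in both DMSO lists only, at 3073 and 2386 bp. CD3D, MPO, CD14 and EPCAM had no peak of any mark in any list.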

How the data were processed

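Per the submitters' processing notes, the authors used Bowtie 1.1.2, MACS 1.4.2 and hg38. Their 12 deposited peak lists, 1 per library and mark, hold chromosome, start and end only, so the unit is a position in base pairs, given here 1-based. Peak heights, scores and read depth are not in these columns, and how the inputs entered peak calling is not given in the sources used here. A peak list turns a graded signal into presence or absence, so a peak near the caller's threshold can appear in 1 library and not in the next.

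Base pairs of peak within 2 kb of either gene end were computed per library with Python 3.11.15, pandas 2.3.3 and numpy 2.4.6. Gene positions came from RefSeq on GRCh38.p14, and promoter windows, 300 bases each, from the RefSeq table. Loss and gain were counted by rule and read against all protein-coding genes. The background of gains includes genes in long stretches with no peak in any list. Single values per library were compared by an exact two-sided permutation test (scipy 1.17.1) over 6 assignments. The counting was tested on simulated data with planted peaks.

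Genes were named by this rule: every member lost or gained, the 3 longest and 3 shortest among members with peaks in 4 lists, members with no peak at all, and lost or gained genes of the lists for histone gene transcription and mRNA processing, for chaperones and for other histone genes. The members and lists were chosen with earlier results of these data known. Further genes, H3C12, H4C11 and H2BC11 among them, were named outside that rule after their values were seen. 1 promoter per class was printed by largest mean H3K27ac coverage. The 3 other promoters came from genes that lost a mark, and not every such gene was printed. The correlation of deviations between same-numbered libraries was 0.01 for H3K27ac, -0.02 for H3K4me1 and 0.01 for H3K4me3, so the numbers were not taken to pair libraries. The alternatives tried were other windows, equal-length lists, a minimum of 200 bp, peaks at 1 histone gene only, shares of the list, a replicate block, each library left out and, chosen after seeing the data, the gene itself. The 4 input libraries were not analysed here. Of the genes used to check the labelled cell line, 1 B-cell gene is not reported here.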

Additional observations from a re-analysis of the deposited data

How the results depend on the processing

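Across all alternatives, 98 recomputed values kept the direction of the result or stayed at 0, with counts above 0 within 1.5 times. The remaining 5 counts moved further and 3 log2 ratios changed sign. The 98 include 11 gain counts of 0 for each mark and 10 H3K4me1 loss counts of 0. Those counts had no direction to keep. Log2 ratios that kept their sign could still change in size. As a share of each list they were -0.15 for H3K4me3 base pairs in place of -0.58, -0.08 for H3K4me3 peaks in place of -0.31, and -1.08 for H3K4me1 base pairs in place of -3.67. Counting only peaks near 1 histone gene gave 2 genes that lost H3K4me3 in place of 8 and 1 that lost H3K27ac in place of 3. Lists cut to equal numbers of widest peaks gave a log2 ratio of 0.08 for H3K4me3 peaks in the span, in place of -0.31, and the cause was not tested. With each library left out in turn, lost genes ranged from 8 to 9 for H3K4me3, from 3 to 19 for H3K27ac and from 0 to 5 for H3K4me1. The log2 ratio of covered base pairs ranged from -0.74 to -0.44 for H3K4me3, from -1.84 to 0.21 for H3K27ac and from -4.58 to -0.53 for H3K4me1. That of peaks ranged from -0.35 to -0.27, from -1.49 to 0.15 and from -4.46 to -1 for the same marks. The highest H3K27ac counts came without DMSO library 2, and the sign changes without DMSO library 1. No gain appeared at a histone gene under any alternative run.

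With the replicate number as a block, the log2 ratios were -0.58 for H3K4me3 base pairs, -0.31 for H3K4me3 peaks, -0.84 for H3K27ac base pairs and -0.70 for H3K27ac peaks, each with an exact permutation p of 0.50, the smallest this pairing allows. H3K4me1 gave no value under the block, without CARM1 inhibitor library 1, for the 2 kb windows or for equal-length lists, because a library or group there had 0 peaks. With 2 libraries a group and no read depth, a change short of a peak appearing or vanishing is seen only in its width.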

Other observations

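The span between the histone genes holds 100 tRNA genes, which are transcribed by RNA polymerase III. Of the 27 H3K4me3 regions in the span that lay at no protein-coding gene, 18 were within 2 kb of a tRNA gene, and 11 of these were kept in all 4 lists, 4 were lost and 3 were mixed. A peak lay within 2 kb of 22 and 22 of the tRNA genes in the CARM1 inhibitor lists, against 33 and 30 in the DMSO lists. Of the 30 tRNA genes with the mark in both DMSO lists, 8 lost it (26.7%), and of 139 tRNA genes elsewhere 25 did (18.0%). Among tRNA genes over 4 kb from protein-coding gene ends, the counts were 8 of 26 in the span and 20 of 65 elsewhere. Several tRNA genes can share 1 peak, and the difference between the span and other places was not tested.

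TRIM38, at the left end of the span, was the only gene there with a gain. Its H3K27ac coverage was 1550 and 1056 bp in the CARM1 inhibitor lists, against 0 bp in both DMSO lists.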
